A study of Mus musculus with 15 samples.

Results

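Severe joint swelling was compared with the absence of swelling in mice that had all been immunized, so that the comparison is between joints that developed severe arthritis and joints that did not. Its members are 6 of the 15 arrays of the series: 3 arrays of knee joint synovium labelled collagen-induced arthritis with severe swelling, and 3 of knee joint synovium labelled collagen-induced arthritis with no swelling. Both groups carried the same treatment, 100 ug of type II collagen in FCA on day 0 and a boost of 100 ug of type II collagen given i.p. on day 21. The other 9 arrays, of mild swelling, moderate swelling and naive (healthy) synovium, helped to estimate the spread between arrays, and the naive and moderate arrays are used below as the next groups on either side. The labels give no strain, sex, age, genotype or day of tissue collection, and do not say whether an array is 1 animal or a pool. The p-values therefore measure the spread between these arrays, which may be technical.

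Collagen-induced arthritis is a mouse model of rheumatoid arthritis in which an antibody and T cell response to cartilage collagen leads to inflammation of the joint. The synovium is the thin membrane that lines the joint. In arthritis it thickens as fibroblasts multiply and as neutrophils, macrophages and lymphocytes enter it, and it then releases proteases and osteoclast-inducing factors that wear away cartilage and bone. Immunization with collagen in adjuvant also acts on the whole animal, so that an immunized mouse without swelling is not the same starting point as an unimmunized mouse.

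The 3 severe arrays had median signals of 47.6, 44.7 and 47.1, against 37, 41.4 and 36.3 in the no-swelling arrays. On the first principal component, which held 58.6% of the variance of the 15 arrays, the severe arrays lay at 87.9, 58.6 and 73.9 and the no-swelling arrays at -67.0, -69.9 and -93.3. As a check of the tissue label, the synovial fibroblast gene Prg4 read 8411, 7686 and 9998 in the severe arrays and 4289, 4077 and 2126 in the no-swelling arrays, and Pdgfra read 2137, 1336 and 1975 in the severe arrays and 350, 376 and 181 in the no-swelling arrays. The check also named Pdpn, Cdh11, Thy1, Col1a1 and Vcam1. Of these, Cdh11 was dim in the no-swelling arrays (values below). The arrays also held muscle: the summed signal of 13 fast-fibre genes was 100031 to 141446 in the severe arrays, against 145233 to 148979 in the no-swelling arrays, without overlap. The ratio of 3' to 5' actin signal, a sign of RNA integrity, was 1.27, 1.26 and 1.21 in the severe arrays, against 1.16, 1.07 and 1.08 in the no-swelling arrays, so it did not overlap between the groups; its part in the results was not tested. The same ratio for Gapdh overlapped. In bulk tissue, fewer cells of a type and less RNA per cell cannot be told apart.

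A large share of the transcriptome differed between severe and no swelling. Of 45037 probe sets, 8975 were higher in severe than in no swelling (19.9%) and 6295 were lower (14%) at an adjusted p under 0.05 in limma's moderated test with Benjamini-Hochberg adjustment. Taking the brightest probe set for each of 18193 genes, 4571 genes were higher (25.1%) and 3025 were lower (16.6%), 41.8% in either direction, and the median over all genes was a log2 fold change of 0.09. Of the 7596 genes called, 7337 had 3 severe arrays that did not overlap with the 3 no-swelling arrays, against 49.8% of all genes. The changes were lopsided in size. A rise of over 8-fold was seen in 87 called genes and a fall of that size in 11, and all 13 called genes past 16-fold were higher in severe swelling. Fold changes are on the log2(signal + 16) scale throughout, which understates the change of dim genes. Counts of list members below are to be read beside the shares over all genes, 25.1% higher and 16.6% lower.

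The balance between rises and falls depended on the scaling. Rises made up 58.8% of the probe sets called on the signals as deposited, 47.6% after quantile normalization, 39% with array medians aligned and 87.2% with arrays scaled on the spiked hybridization controls. The median log2 fold change of all probe sets shifted by -0.09 after quantile normalization, by -0.20 with medians aligned and by 0.23 with the control scaling. With medians aligned, 8 of the called genes followed by name lost their call. All 8 were rises (Cd3d, Cd3g, Cd8a, Chrna1, Dcn, Dsp, Mmp8 and Socs3). After quantile normalization 10 lost it, among them the rises of Cd8a, Dsp and Mmp8. Of 318 called genes followed by name, 49 lost their call with the control scaling and 2 changed sign; all 49 were falls, and among them were those of Vegfa, Timp3, Frzb, Cd55, Cd59a, Sod1, Sod2, Fasn, Pfkm, Dbp, Cox5b, Cox7a2l, Bmp6, Tgfb2, Car2, Lyve1, Prtn3, Fbxo32, Mylpf, Mybpc2, Tnnt3, Sec23a, Sema3c, Hoxc10, Tsc22d3, Mrps22 and Psmb7.

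**Figure D1:**
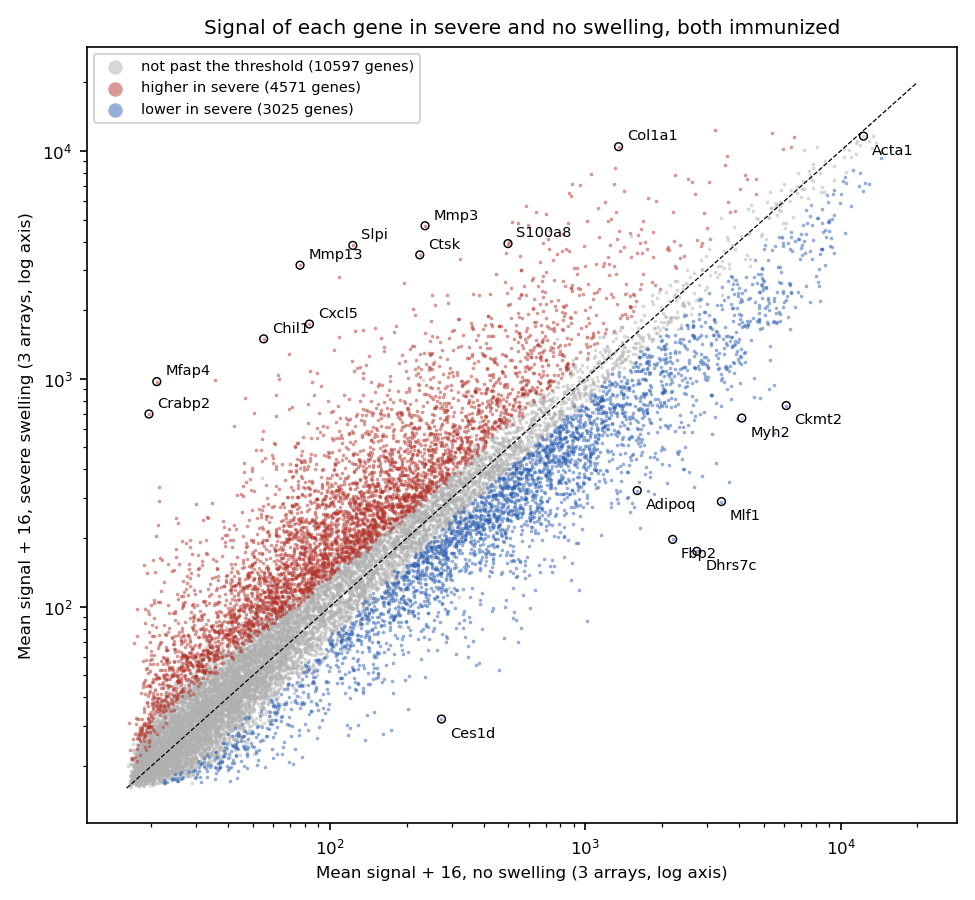
Mean signal of each of 18193 genes over 3 severe arrays (vertical axis) against 3 no-swelling arrays (horizontal axis), both plus 16 on log axes; points are coloured by the limma call, and the dashed line marks equal signal. The farthest genes above the line (Mmp13, Mfap4, Crabp2) lie farther from it than the farthest below (Dhrs7c, Mlf1, Fbp2), and the brightest muscle genes, such as Acta1, lie near the line.

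The genes with the largest rises included proteases, matrix proteins and stromal genes. Mmp13, collagenase 3, which cleaves the type II collagen of cartilage, had signals of 3554, 3752 and 2099 in the severe arrays, against 157, 9.6 and 14.4 in the no-swelling arrays. Its log2 fold change was 5.90 ± 0.74 (SE; adjusted p = 1.8e-05), the largest of all genes called, and the 157 of no-swelling replicate 1 stood well above the other 2 arrays of its group. Mfap4, a protein of elastic microfibrils, read 1173, 487 and 1208 in severe swelling and 4.7, 5.2 and 5.1 in no swelling, a log2 fold change of 5.42 ± 0.62 (adjusted p = 8.9e-06). Crabp2, which carries retinoic acid to its nuclear receptor, read 762, 480 and 812 in severe swelling, against 2.3, 5.3 and 3.1 in no swelling. For both genes the no-swelling signals were below the 16 added before taking logarithms, so that the fold change depends on that choice. The next were Chil1, a chitinase-like protein of activated macrophages and chondrocytes (log2 fold change 4.97 ± 0.47), the elastase inhibitor Slpi (4.97 ± 0.34), the secreted C1q-like protein C1qtnf3 (4.78 ± 0.43) and Cthrc1, a collagen-regulating protein of activated fibroblasts (4.72 ± 0.52). Cxcl5, a chemokine that draws neutrophils, followed at 4.40 ± 0.21. The ranking took only genes whose arrays did not overlap between the groups, so the lowest severe array was above the highest no-swelling array by rule. Mmp3, Tnn (a tenascin), Mmp9, the fibroblast cadherin Cdh11, Ltbp2, Ctsk and the potassium channel Kcnj15 completed the 15 largest rises, with log2 fold changes of 3.97 to 4.34.

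The genes with the largest falls included many genes of skeletal muscle, whose summed fast-fibre signal was also lower on the severe arrays (above); its part in these falls was not tested. Dhrs7c, a dehydrogenase of the sarcoplasmic reticulum, had signals of 138, 104 and 235 in severe swelling, against 1732, 3186 and 3238 in no swelling (log2 fold change -3.98 ± 0.40, adjusted p = 3.6e-06). Fbp2, the muscle form of fructose-bisphosphatase, read 120, 159 and 266 in severe swelling and 1549, 2516 and 2488 in no swelling (-3.51 ± 0.32). Ckmt2, the mitochondrial creatine kinase of striated muscle, read 499, 633 and 1108 in severe swelling and 5054, 5882 and 7389 in no swelling (-3.07 ± 0.29). Here too, the ranking took only genes whose arrays did not overlap between the groups. Mlf1, Tlcd3b, Nmrk2 (a kinase of nicotinamide riboside), Lrrc38, the kinase Mylk4, the carboxylesterase Ces1d, Ky, Smco1, the methyltransferase Mettl21e, the spermine oxidase Smox, the cardiac actin Actc1 and Pfkfb3, a regulator of glycolytic flux, had log2 fold changes of -3.62 to -2.95.

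Matrix proteases rose as a group. Of 12 matrix metalloproteinases measured, 10 were higher in severe swelling and none was lower, with a median log2 fold change of 2.13. All 3 collagenases measured rose. Mmp14, the membrane-bound collagenase, read 3817, 2924 and 3298 in severe swelling, against 302, 415 and 203 in no swelling (3.43 ± 0.28), and the neutrophil collagenase Mmp8 had a smaller value (0.89 ± 0.31), whose call was lost without no-swelling replicate 2 (adjusted p = 0.085) or 3 (0.11) and without severe replicate 1 (0.16). Both gelatinases rose, Mmp2 by 3.004 ± 0.31 and Mmp9 by 4.23 ± 0.44. Mmp3, stromelysin 1, which activates other metalloproteinases, read 5660, 3298 and 5077 in severe swelling and 292, 236 and 131 in no swelling (4.34 ± 0.38, adjusted p = 1.9e-06). Mmp10, a close relative of Mmp3, did not pass (-0.55 ± 0.22, adjusted p = 0.069) with signals of 9.5, 7.4 and 6.5 in severe swelling, against 33.9, 20.3 and 7.2 in no swelling; it passed as lower without no-swelling replicate 3 (-0.84, adjusted p = 0.0036).

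The promoters of Mmp13 and Mmp3 are shown because these collagenase and stromelysin genes lead the proteases. Both lie in the metalloproteinase cluster of chromosome 9. The capitals mark matches to TGANTCA, the core bound by AP-1 (Fos and Jun dimers), searched on both strands from 250 bases before to 50 after the RefSeq start (GRCm38.p6); Mmp13 is chr9:7272264-7272563 on the plus strand and Mmp3 is chr9:7445572-7445871 on the plus strand.
Mmp13: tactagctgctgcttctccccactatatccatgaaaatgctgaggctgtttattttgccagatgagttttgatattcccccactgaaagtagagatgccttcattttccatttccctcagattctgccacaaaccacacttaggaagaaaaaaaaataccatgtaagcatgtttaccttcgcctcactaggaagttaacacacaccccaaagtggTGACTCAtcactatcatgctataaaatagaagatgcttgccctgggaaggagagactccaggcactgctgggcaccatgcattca
Mmp3: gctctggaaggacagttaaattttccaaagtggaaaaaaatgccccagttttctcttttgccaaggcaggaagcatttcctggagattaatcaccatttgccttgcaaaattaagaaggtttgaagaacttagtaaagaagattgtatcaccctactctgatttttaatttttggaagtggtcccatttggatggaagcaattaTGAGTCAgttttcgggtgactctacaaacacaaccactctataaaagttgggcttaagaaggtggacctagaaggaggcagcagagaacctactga
The match began 35 bases before the start in Mmp13 and 46 bases before it in Mmp3. Of the 15 genes with the largest rises, 9 had a promoter in the RefSeq table and 2 of these 9 windows (22.2%) held the motif, Mmp13 and Mmp3, against 7.81% of 32851 windows of all genes. A match is a description of the sequence, not a bound site. Some genes of AP-1 subunits were higher in severe swelling. Fosl2 read 1094, 996 and 1189, against 235, 201 and 198 in no swelling (2.29 ± 0.17, adjusted p = 1.1e-06), and Fosl1 rose by 1.80 ± 0.22. Whether AP-1 acts on either promoter here was not tested. Of 13 immediate early factors measured, 12 rose and none fell. Jun, which did not pass, read 1172, 653 and 684 in severe swelling and 382, 306 and 326 in no swelling (1.22 ± 0.46, adjusted p = 0.054); the mean of its probe sets passed (0.88, adjusted p = 0.013).

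The other protease families followed the metalloproteinases. Of 10 aggrecanases and ADAM proteases, 9 rose and none fell (median log2 fold change 1.68); Adamts4, which cleaves aggrecan, read 414, 378 and 382 in severe swelling and 61.9, 59.5 and 58.9 in no swelling, while its relative Adamts5 rose less (0.98 ± 0.21, against 2.42 ± 0.21 for Adamts4). All 8 cathepsins rose. Ctsk, the collagen-cleaving cathepsin of osteoclasts and synovial fibroblasts, read 3966, 2479 and 4001 in severe swelling, against 152, 314 and 161 in no swelling (3.997 ± 0.35). The plasminogen activator Plau did not pass (-0.06 ± 0.34, adjusted p = 0.92), while its receptor Plaur rose (1.33 ± 0.21). Of 11 protease inhibitors, 6 rose and 3 fell (1 with the control scaling). Timp1 rose (3.34 ± 0.43) and Timp2 rose (1.84 ± 0.25), but Timp3 fell (-0.78 ± 0.18) and Timp4, which is rich in striated muscle, read 44.7, 84.5 and 32.6 in severe swelling and 244, 246 and 313 in no swelling (-2.08 ± 0.26).

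Collagen genes and the machinery that builds collagen rose together. All 17 collagen chains measured were higher in severe swelling, with a median log2 fold change of 2.42 and a range of 0.81 to 3.30; all 17 were called under each of the 3 other scalings and without each array in turn. Col1a1, the main chain of type I collagen, read 10370, 7700 and 13191 in severe swelling, against 1032, 2165 and 807 in no swelling (3.05 ± 0.31, adjusted p = 3.7e-06). Col5a1 (3.23 ± 0.28) and the fibril-associated Col12a1 (3.30 ± 0.29) rose as much or more. Col3a1 and Col1a2, which were bright in both groups, rose by 0.81 ± 0.21 and 1.15 ± 0.25. Of 16 collagen-folding and cross-linking enzymes, 14 rose and none fell. The cross-linking oxidase Lox read 6363, 4330 and 6427 in severe swelling and 632, 799 and 280 in no swelling (3.39 ± 0.31), and the lysyl hydroxylase Plod2 rose by 3.30 ± 0.28. The transglutaminase Tgm2 did not pass (0.21 ± 0.17, adjusted p = 0.39). Serpinh1, the collagen chaperone, rose by 2.57 ± 0.21.

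Matricellular proteins and proteoglycans showed the same direction, 24 of 26 higher and none lower. Thbs2 read 2924, 2210 and 2755 in severe swelling and 162, 266 and 108 in no swelling (3.84 ± 0.45). Postn, a matricellular protein of remodelling tissue, rose by 2.95 ± 0.28 and Tnc, a large tenascin that can act as an alarm signal, by 3.32 ± 0.35. Among hyaluronan genes, the synthase Has2 rose (2.51 ± 0.20) and the hyaluronan-degrading Cemip rose (2.40 ± 0.21). Dcn, which was bright in both groups, read 10154, 8400 and 12727 in severe swelling, against 6618, 7443 and 5092 in no swelling (0.70 ± 0.22); its call was lost without severe replicate 1 (adjusted p = 0.052), without severe replicate 3 (adjusted p = 0.10) and without no-swelling replicate 3 (adjusted p = 0.11). Genes of the secretory pathway rose too: 15 of 17 genes of translocation, folding and export were higher and 1, the coat protein Sec23a, was lower (-0.58 ± 0.11), a call that was lost with the control scaling. The largest rises were Kdelr3 (2.61 ± 0.27), Creb3l1 (2.52 ± 0.19), a membrane-bound factor that drives collagen secretion, and the translocon subunit Sec61a1 (2.45 ± 0.25). The 8 stress factors of the same list were divided, 2 higher and 2 lower (0 with the control scaling), and Atf4 and Ddit3, the factors of the integrated stress response, did not pass (adjusted p = 0.28 and 0.68).

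Markers of synovial fibroblasts did not all move the same way. Of 16 measured, 11 rose and 2 fell. Cdh11, the cadherin of lining fibroblasts, read 1269, 1395 and 1136 in severe swelling, against 69.6, 50.1 and 40.1 in no swelling (4.23 ± 0.39). Pdpn rose by 2.48 ± 0.19 and Vcam1 by 2.92 ± 0.22. Prg4, which encodes the joint lubricant lubricin, rose by 1.37 ± 0.24. Of the lining markers, Clic5 fell (-2.33 ± 0.22), with signals of 122, 201 and 202 in severe swelling and 872, 907 and 993 in no swelling, and Cd55 fell with overlapping groups (-1.19 ± 0.29); Clic5 is also made in skeletal muscle. Of the 8 sublining markers, 7 rose. Fap, the fibroblast activation protease, rose by 2.44 ± 0.31 and Pdgfra by 2.56 ± 0.26. Pi16, a marker of universal fibroblasts, was uneven, with 1993, 204 and 2595 in severe swelling and 149, 115 and 65.5 in no swelling (3.12 ± 0.98, adjusted p = 0.021), where severe replicate 2 lay close to the no-swelling arrays. The call of Pi16 was lost without no-swelling replicate 3 (adjusted p = 0.075) and without severe replicate 1 (0.092) or 3 (0.10).

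Cartilage, Wnt and TGF-beta genes showed divided changes. Of 12 cartilage matrix genes, 6 rose and none fell: Acan, the core protein of aggrecan, read 559, 255 and 307 in severe swelling and 19.9, 47.3 and 23.4 in no swelling (3.05 ± 0.43), Col2a1 read 307, 155 and 145 in severe swelling and 39.2, 11.2 and 30.3 in no swelling (2.33 ± 0.40), and Col11a1 rose by 3.44 ± 0.36. Cartilage cells carried along in the tissue and cells of the synovium that make these genes cannot be told apart here. The chondrocyte factor Sox9 rose (1.11 ± 0.28) and Sox6, which is also a muscle factor, fell (-2.11 ± 0.28). Among 8 secreted Wnt antagonists, Dkk3 (2.49 ± 0.32), Sfrp1 (2.45 ± 0.35) and Sfrp2 (1.71 ± 0.43) rose, Frzb fell (-1.14 ± 0.23) and Dkk1 did not pass (0.00 ± 0.17, adjusted p = 0.99). Of 8 TGF-beta and BMP ligands, 3 rose and 2 fell (0 with the control scaling), beside 25.1% higher and 16.6% lower over all genes. Tgfb1 read 663, 462 and 392 in severe swelling, against 65.4, 76.4 and 32.5 in no swelling (2.83 ± 0.24), Inhba rose by 2.14 ± 0.22, and Tgfb2 fell by 0.62 ± 0.19 while Bmp6 fell by 0.68 ± 0.24. The call of Bmp6 was lost without severe replicate 2 (adjusted p = 0.074) or 3 (0.12) and without no-swelling replicate 1 (0.075) or 2 (0.14). That of Tgfb2 was lost without no-swelling replicate 1 (0.064), without severe replicate 1 (0.074) or 2 (0.053) and for the mean of its probe sets (0.36). Of 8 antagonists and latent-binding proteins, 7 rose, with Ltbp2 (4.07 ± 0.30), Fstl1 (2.88 ± 0.27) and Fstl3 (2.32 ± 0.29) the largest.

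**Figure D2:**
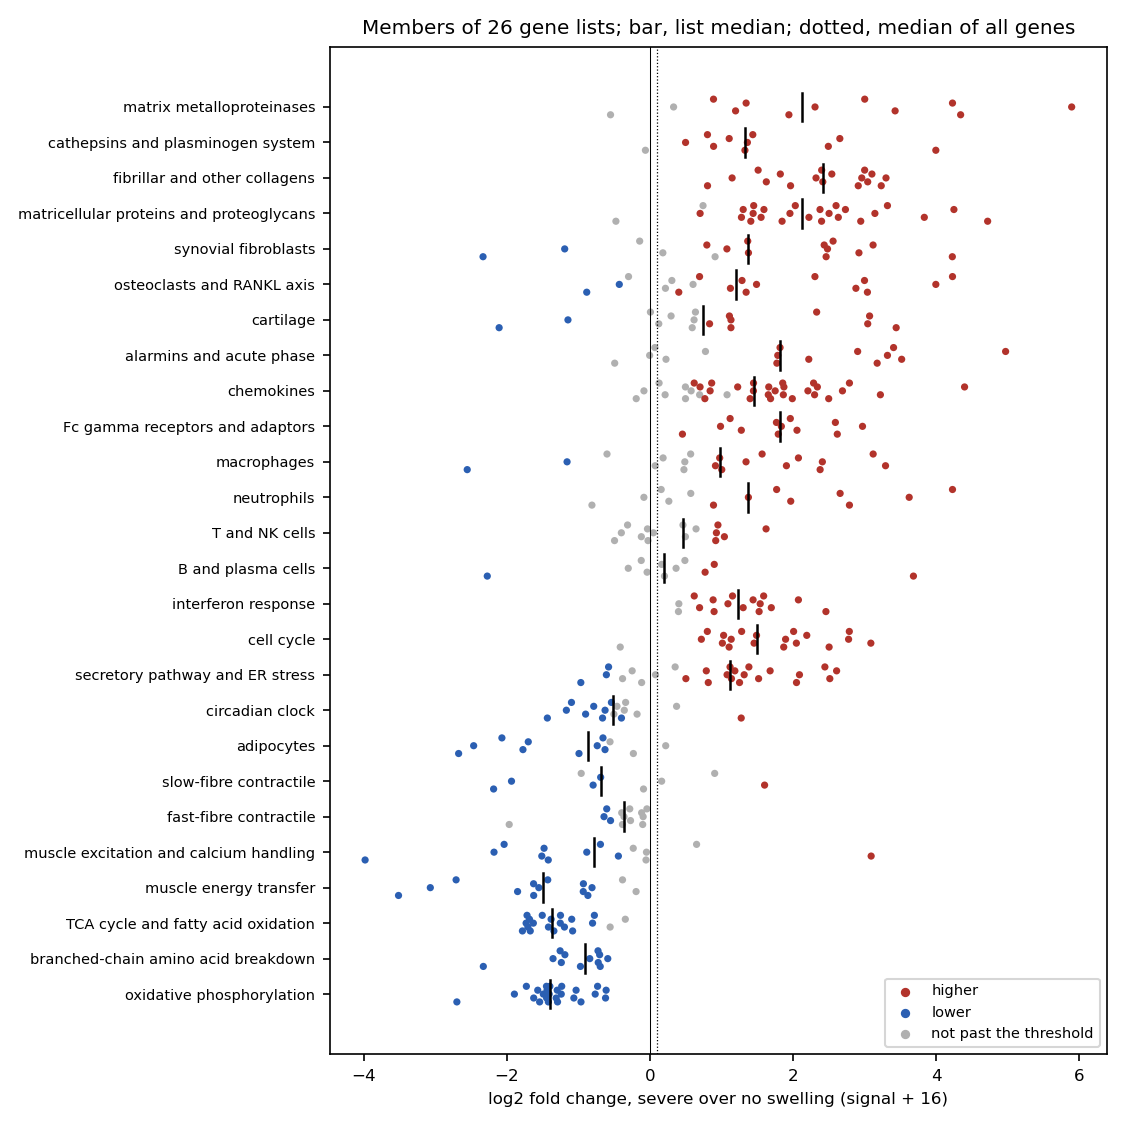
Log2 fold change, severe over no swelling, of every measured member of 26 gene lists (1 point a gene; red, called higher; blue, called lower; grey, not past the threshold); the bar is the list's median and the dotted line the median of all genes at 0.09. All 17 collagens lie to the right and all 25 oxidative phosphorylation genes to the left, while macrophage, cartilage and fibroblast lists hold genes on both sides.

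Most osteoclast genes rose, and no osteoblast gene passed. Osteoclasts are bone-resorbing cells that form when RANKL, the product of Tnfsf11, acts on myeloid precursors, and the decoy receptor encoded by Tnfrsf11b holds RANKL back. Tnfsf11 read 135, 129 and 170 in severe swelling, against 9.6, 2.2 and 1 in no swelling (3.001 ± 0.30, adjusted p = 3.6e-06). Tnfrsf11b did not pass and was dim, at 9.2, 9.6 and 12 in severe swelling and 8.1, 2.8 and 9.3 in no swelling. Of the 18 genes of the list, 12 rose and 2 fell (0 with the control scaling). The effectors included Acp5, tartrate-resistant acid phosphatase, at 1353, 602 and 1376 in severe swelling and 114, 147 and 83.9 in no swelling (3.04 ± 0.35), the proton pump subunits Atp6v0d2 (2.88 ± 0.22) and Tcirg1 (2.31 ± 0.21), and the fusion receptor Dcstamp (1.49 ± 0.24). Calcr, the calcitonin receptor of mature osteoclasts, did not pass (-0.30 ± 0.20, adjusted p = 0.28) and Car2, carbonic anhydrase 2, fell (-0.88 ± 0.25), a call that was lost without severe replicate 2 (adjusted p = 0.050). Nfatc1, the master factor of osteoclast formation, was called lower by its brightest probe set (-0.43 ± 0.10) and higher by the mean of its probe sets (0.80, adjusted p = 0.0011), so its direction is not settled. Of 6 osteoblast and osteocyte markers, 0 passed in limma and 0 had an unadjusted p under 0.05.

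Alarmins, acute phase genes and chemokines rose. Of 15 alarmin and acute phase genes, 10 rose and none fell (median 1.82). S100a8 and S100a9, whose products pair as calprotectin, both rose: S100a8 read 4720, 3398 and 3595 in the severe arrays, against 1054, 292 and 102 in the no-swelling arrays (3.52 ± 0.55), and S100a9 read 5457, 3693 and 5048 in the severe arrays, against 1154, 437 and 146 in the no-swelling arrays (3.41 ± 0.49). Replicate 1 was the highest no-swelling array for both genes, and still below every severe array. Saa3, an acute phase protein made locally by macrophages and fibroblasts, rose by 3.18 ± 0.30, and Hp, haptoglobin, by 2.90 ± 0.36. The liver-type genes Saa1, Saa2 and Orm1 did not pass (adjusted p = 0.86, 0.21 and 1). Of 35 chemokine genes, 26 rose and none fell. All 6 genes listed as neutrophil-attracting ligands, Pf4 among them, rose. Cxcl5 read 1565, 1533 and 2071 in severe swelling, against 81.7, 73.8 and 46 in no swelling, Cxcl3 rose by 3.22 ± 0.37, and Cxcl1 by 2.29 ± 0.22. The chemokine receptor Cxcr2 rose by 2.79 ± 0.21. Of 9 monocyte-attracting ligands, 7 rose; Ccl2 read 354, 332 and 440 in severe swelling and 216, 184 and 24.4 in no swelling (1.66 ± 0.47), and Ccl8 did not pass, at 1726, 826 and 1906 in severe swelling and 725, 1248 and 303 in no swelling, but did so without no-swelling replicate 2 (adjusted p = 0.017) or severe replicate 2 (0.029). Among ligands for lymphocytes, Cxcl12 (2.34 ± 0.28), Cxcl14 (2.50 ± 0.31) and Cxcl16 (2.21 ± 0.21) rose and Cxcl9 and Ccl22 did not pass (adjusted p = 0.89 and 0.57).

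Cytokine receptors rose, while several cytokine ligands did not pass. Tnf, the target of a main class of arthritis drugs, did not pass: it read 9.5, 38.4 and 18.5 in severe swelling, against 6.2, 7.9 and 60.7 in no swelling (0.08 ± 0.44, adjusted p = 0.92), and the groups overlapped near the bottom of the signal range. All 4 TNF-family receptors measured rose, Tnfrsf1b by 1.92 ± 0.24 and Tnfrsf12a, the receptor of TWEAK, by 1.77 ± 0.36. The lymphotoxin Ltb read 445, 100 and 282 in severe swelling, against 1.8, 12.8 and 1.9 in no swelling (3.59 ± 0.47). Of 6 NF-kB feedback inhibitors, 5 rose, led by Nfkbie (2.73 ± 0.34) and Nfkbiz (2.28 ± 0.20). Il1b rose (2.85 ± 0.25), at 936, 663 and 802 in severe swelling and 151, 100 and 57.1 in no swelling, Il1a and Il18 did not pass (adjusted p = 0.15 and 0.095; for Il18 0.0045 without no-swelling replicate 2), and the signalling receptor Il1r1 rose by 3.06 ± 0.46. Il17a, Il23a, Csf2 and Csf3 did not pass (adjusted p = 0.69, 0.3, 0.67 and 0.29), while all 6 receptors of the IL-17 and colony-stimulating factor list rose, Csf3r, the G-CSF receptor of neutrophils, by 3.63 ± 0.29 and Il17ra by 2.75 ± 0.24. A ligand that did not pass at a dim signal was not detectable as changed on these arrays, which does not show that it was absent.

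The IL-6 family was divided. Il6 read 285, 422 and 599 in severe swelling, against 216, 110 and 87.5 in no swelling (1.58 ± 0.34, adjusted p = 0.0018), and Lif (1.59 ± 0.25) and Osm (1.04 ± 0.26) rose as well. The oncostatin receptor Osmr rose by 1.81 ± 0.20, while the leukaemia inhibitory factor receptor Lifr fell (-1.72 ± 0.18), at 297, 405 and 465 in severe swelling and 1181, 1188 and 1573 in no swelling. Of the signal transducers, Stat6 (1.46 ± 0.18), Jak3 (1.35 ± 0.17) and Stat3 (0.88 ± 0.16) rose and Stat5b fell (-1.33 ± 0.16). Among the feedback inhibitors of this pathway, Cish, a target of STAT5, fell (-2.29 ± 0.31) and Socs3, a target of STAT3, rose by 0.66 ± 0.21 with overlapping groups, 2011, 1522 and 2784 in severe swelling and 1704, 1147 and 1096 in no swelling. The call of Socs3 was lost without severe replicate 3 (adjusted p = 0.12) and without no-swelling replicate 2 (0.076) or 3 (0.094).

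The promoters of Il6 and Saa3 are shown because both genes were already above naive levels in joints without swelling (below). Capitals mark TTGCNNAA, the core of the C/EBP element, in Saa3 and both TTGCNNAA and an NF-kB core (GGGA and CC with 4 bases between them) in Il6, on either strand (GRCm38.p6; Il6 at chr5:30012864-30013163 on the plus strand, Saa3 at chr7:46715627-46715926 on the minus strand, printed 5′ to 3′ along the gene).
Il6: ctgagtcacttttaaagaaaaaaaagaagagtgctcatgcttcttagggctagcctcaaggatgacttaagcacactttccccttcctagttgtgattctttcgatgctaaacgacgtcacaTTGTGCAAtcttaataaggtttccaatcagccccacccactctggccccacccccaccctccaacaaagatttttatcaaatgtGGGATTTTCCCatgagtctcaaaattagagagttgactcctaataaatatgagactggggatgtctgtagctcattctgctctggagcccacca
Saa3: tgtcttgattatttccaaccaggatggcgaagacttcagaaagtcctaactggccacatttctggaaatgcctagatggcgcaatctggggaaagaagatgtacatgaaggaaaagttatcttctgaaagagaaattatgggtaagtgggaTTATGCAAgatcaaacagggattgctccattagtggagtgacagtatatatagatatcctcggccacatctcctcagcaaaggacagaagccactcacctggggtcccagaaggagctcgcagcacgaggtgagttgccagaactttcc
The C/EBP core began 128 bases before the start of Il6 and 99 bases before that of Saa3, and the NF-kB core of Il6 matched at 44 and 43 bases before the start, 2 overlapping matches. Of all windows, 10.8% held the C/EBP core and 20.7% the NF-kB core. Among the 9 windows of the 15 largest rises these shares were 55.6% and 33.3%, counts of 5 and 3 windows.

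Antibody, complement and innate sensing genes rose. All 12 genes of the Fc gamma receptor list were higher, the receptors Fcgr3 (2.06 ± 0.26) and Fcgr2b (1.77 ± 0.28), which bind antibody complexes, and the adaptors Tyrobp (2.97 ± 0.33) and Fcer1g (2.62 ± 0.34). Tyrobp read 1980, 1340 and 1996 in severe swelling, against 293, 306 and 97.2 in no swelling. All 8 complement components rose, from C2 (0.99 ± 0.17) to C1qa (2.40 ± 0.31), and of 5 regulators Serping1 rose (1.55 ± 0.26) while Cd55 and Cd59a, which protect cells from complement, fell (-1.19 ± 0.29 and -0.62 ± 0.15), both calls that were lost with the control scaling. Of 17 Toll-like receptor and inflammasome genes, 13 rose and none fell, with Tlr2 (2.14 ± 0.26) and Pycard (2.18 ± 0.36) among the largest. Of 10 MHC class II genes, 8 rose; Cd74 read 2879, 2111 and 3019 in severe swelling and 767, 1391 and 250 in no swelling (1.998 ± 0.41). Of 16 interferon-responsive genes, 14 rose, Ifit1 by 2.46 ± 0.50 and Rsad2 by 2.08 ± 0.40; both were lower in severe replicate 2 than in the other 2 severe arrays. Of 13 adhesion genes, 10 rose, Selp, the P-selectin of endothelium and platelets, by 2.46 ± 0.22 and the beta-2 integrin Itgb2 by 2.56 ± 0.25.

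Most neutrophil and macrophage markers rose. Of 13 neutrophil markers, 8 rose and none fell, and the summed signal of the 13 was 3076 to 4290 in the severe arrays, against 435 to 1532 in the no-swelling arrays. Csf3r read 1095, 1011 and 1042 in severe swelling, against 104, 63.4 and 51.6 in no swelling, and the lectin receptor Clec4d rose by 2.66 ± 0.24. The granule genes Ngp, Ltf and Camp, which are made in the marrow before neutrophils leave it, did not pass; Ngp read 120, 134 and 61.1 in severe swelling and 633, 118 and 81.1 in no swelling. Of 5 marrow progenitor granule genes, 1 fell (Prtn3, -1.04 ± 0.33), and Mpo did not pass. The call of Prtn3 was lost without no-swelling replicate 1 (adjusted p = 0.10) and without severe replicate 1 (0.090) or 3 (0.064). Of 12 macrophage lineage markers, 8 rose and 1 fell: Cd68 rose by 2.38 ± 0.26, Trem2 by 3.12 ± 0.35 and Mpeg1 by 3.29 ± 0.33, Cd163 and Mrc1, which mark resident macrophages, did not pass, and Lyve1 fell (-1.16 ± 0.31; the mean of its probe sets did not pass, adjusted p = 0.067). Cd163 passed as lower without no-swelling replicate 3 (-1.05, adjusted p = 0.017). Among genes of alternative activation, Arg1 rose (2.41 ± 0.34), Chil3 did not pass, and Retnla fell, at 455, 81.1 and 350 in severe swelling and 1465, 3404 and 650 in no swelling (-2.55 ± 0.54, adjusted p = 0.0017).

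T cell and mast cell markers were dim. Of 15 T and NK cell markers, 5 rose (Cd3d, Cd3g, Cd4, Cd8a and Cd5), and the summed signal of the list was 595 to 617 in the severe arrays, against 461 to 548 in the no-swelling arrays. Cd5 read 51.3, 34.2 and 51.2 in severe swelling and 8.3, 1.5 and 2.2 in no swelling (1.62 ± 0.26), and Cd3e did not pass (0.50 ± 0.38, adjusted p = 0.36). The calls of Cd4 and Cd8a did not hold for the mean of their probe sets (adjusted p = 0.28 and 0.69). The call of Cd3d was lost without no-swelling replicate 1 (0.058) or 2 (0.062) and without severe replicate 1 (0.12) or 3 (0.080), that of Cd3g without no-swelling replicate 1 (0.079) or severe replicate 1 (0.072), that of Cd4 without no-swelling replicate 3 (0.068) or severe replicate 3 (0.10), and that of Cd8a without no-swelling replicate 2 (0.16) or severe replicate 1 (0.081) or 3 (0.095). The number higher in this list was 2 without severe replicate 1 or 3 or with medians aligned and 3 without no-swelling replicate 1 or 2. Of 11 B and plasma cell markers, 3 rose and 1 fell. Over all genes 25.1% were higher and 16.6% lower, and the counts of this paragraph stand beside those shares. Sdc1, a syndecan of plasma cells that stromal and epithelial cells also make, rose by 3.68 ± 0.26, but Jchain, Mzb1, Cd79a and Ms4a1 did not pass (adjusted p = 0.38, 0.48, 0.8 and 0.51). Ighm fell (-2.27 ± 0.31), but its probe sets did not share a direction, and the mean of its probe sets did not pass (log2 fold change -0.30, adjusted p = 0.19). Of 9 mast cell markers, Kit and Hdc rose (1.42 ± 0.22 and 2.87 ± 0.27) and the proteases Cpa3, Tpsb2, Cma1 and Mcpt4 did not pass. Hdc, which makes histamine, read 130, 125 and 117 in severe swelling and 2.8, 4 and 2.7 in no swelling. No erythroid marker passed, and 1 of 8 keratinocyte markers did (Dsp, 0.60 ± 0.20), a call that did not hold for the mean of its probe sets (-0.02), without no-swelling replicate 1 (adjusted p = 0.059) or 2 (0.0997) or without severe replicate 3 (0.14).

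Vessel, eicosanoid and oxidase genes rose, with exceptions. Of 12 endothelial markers, 10 rose, Pecam1 by 1.07 ± 0.14 and Plvap, a protein of leaky capillaries, by 1.51 ± 0.22. Among 10 angiogenic ligands, 6 rose and 2 fell. Vegfa, the main angiogenic factor, read 263, 292 and 290 in severe swelling, against 487, 550 and 672 in no swelling (-0.97 ± 0.18, adjusted p = 4.7e-04), and Vegfb fell by 1.65 ± 0.24; both are made by skeletal muscle. Angptl4 rose by 2.37 ± 0.27. The number of angiogenic ligands higher was 3 without severe replicate 3. Ptgs2, the inducible cyclooxygenase that is the target of anti-inflammatory drugs, read 348, 300 and 237 in severe swelling and 44.7, 27.7 and 14.7 in no swelling (2.83 ± 0.29), Ptger4, which encodes a receptor of prostaglandin E2, rose by 2.16 ± 0.24, and Alox5ap, which leukotriene synthesis needs, rose by 2.21 ± 0.31. Of the 16 genes of this list 10 rose, and 6 did without severe replicate 1, without severe replicate 3, without no-swelling replicate 3, after quantile normalization or with medians aligned. All 5 NADPH oxidase genes rose, led by Cyba (2.46 ± 0.27) and Ncf1 (2.44 ± 0.25). Of 12 antioxidant genes, 3 rose and 4 fell (0 with the control scaling and 7 with medians aligned): the extracellular superoxide dismutase Sod3 rose (3.32 ± 0.30), at 2797, 1934 and 2234 in severe swelling and 300, 300 and 108 in no swelling, whereas cytosolic Sod1 and mitochondrial Sod2 fell (-0.82 ± 0.13 and -0.51 ± 0.14); the call of Sod2 was lost without no-swelling replicate 3 (adjusted p = 0.051). Nos2, the inducible nitric oxide synthase, did not pass (0.38 ± 0.20, adjusted p = 0.16), but did so without severe replicate 3 (0.61, adjusted p = 0.019).

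Proliferation genes rose. Of 19 cell cycle genes, 18 were higher and none lower. Top2a read 452, 330 and 412 in severe swelling, against 55.6, 54.7 and 25.6 in no swelling (2.79 ± 0.26), Mki67 read 395, 297 and 376 in severe swelling and 90.7, 53.1 and 21.3 in no swelling (2.51 ± 0.33), and Cdk1 rose by 3.09 ± 0.37. Aurka, the member that did not pass, read 137, 86.6 and 145 in severe swelling and 157, 163 and 176 in no swelling. The cytoskeletal genes of migrating cells also rose, 12 of 14, with the actin-bundling Lcp1 of leukocytes (2.80 ± 0.31) and Fscn1 (2.50 ± 0.22) among the larger rises, while Actb did not pass (0.12 ± 0.21).

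Genes of muscle energy supply fell, and by their brightest probe sets genes of the muscle's contractile apparatus largely did not pass. Whether these sets of genes differ from each other was not tested. Of 13 fast-fibre contractile genes, 3 fell (0 with the control scaling and 7 with medians aligned) and none rose, and the list's median of -0.36 became 0.09 with the control scaling. Acta1, skeletal actin, read 11027, 8837 and 14914 in severe swelling and 12260, 13065 and 11506 in no swelling (-0.11 ± 0.23, adjusted p = 0.76), and Myh4, the fast myosin heavy chain IIb, had a log2 fold change of -0.09 ± 0.22; the mean of its probe sets passed, at -0.67. The calls of the 3 that fell, Mylpf (-0.64 ± 0.19), Mybpc2 (-0.60 ± 0.17) and Tnnt3 (-0.55 ± 0.17), were lost without severe replicate 1 (adjusted p = 0.070, 0.060 and 0.084), that of Tnnt3 also without no-swelling replicate 1 (0.066), and without severe replicate 3 the list had 5 falls. Myh2, the IIa heavy chain, read 517, 668 and 785 in severe swelling and 502, 4754 and 7010 in no swelling; it did not pass (-1.96 ± 0.75, adjusted p = 0.057), but did so without no-swelling replicate 1 (log2 fold change -3.13), whose signal was as low as the severe arrays. The slow-fibre list could not be read as a whole, because the no-swelling arrays disagreed. Its summed signal was 8387 in no-swelling replicate 2, against 3631 and 3818 in replicates 1 and 3. It was 4362 to 4486 in the severe arrays and 9961 to 15933 in the naive arrays. Myh7, the slow heavy chain, read 124, 26.6 and 134 in severe swelling and 87.4, 763 and 65.5 in no swelling (-0.96 ± 0.89, adjusted p = 0.46), and Tnnc1 read 217, 170 and 208 in severe swelling and 126, 911 and 72.3 in no swelling. The 4 falls of this list became 1 without no-swelling replicate 2, 1 without no-swelling replicate 3, 2 without severe replicate 2 or 3 and none without severe replicate 1 or with the control scaling.

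**Figure D3:**
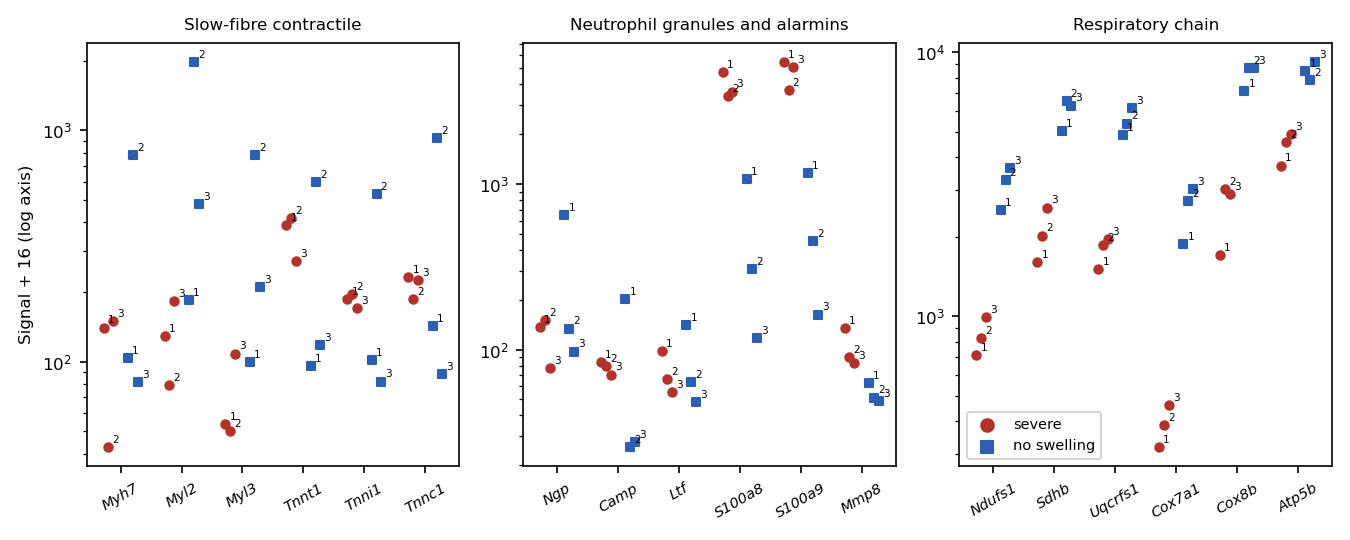
Signal plus 16 (log axis) of 18 genes on the 3 severe arrays (red circles) and the 3 no-swelling arrays (blue squares), labelled with the replicate number. No-swelling replicate 2 is highest for the slow-fibre genes shown and no-swelling replicate 1 for the neutrophil granule genes and alarmins within its group, while the respiratory chain genes separate on all arrays.

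Respiratory chain genes fell without exception. All 25 oxidative phosphorylation genes measured were lower in severe swelling, 5 of complex I, 4 of complex II, 4 of complex III, 7 of complex IV and 5 of complex V, with a median log2 fold change of -1.40. Cox7a1, a muscle isoform of a complex IV subunit, read 304, 371 and 445 in severe swelling, against 1862, 2721 and 3008 in no swelling (-2.70 ± 0.26, adjusted p = 2.9e-06). Ndufs1 of complex I read 696, 814 and 980 in severe swelling and 2504, 3256 and 3634 in no swelling (-1.89 ± 0.20). The fall was smallest in Cox7a2l (-0.61 ± 0.12) and Cox5b (-0.62 ± 0.15), both subunits of complex IV. All 25 were called under quantile normalization, with medians aligned and without each array in turn, and 15 were with the control scaling. Uqcrb, outside this list but among the brightest genes called, fell by 0.45 ± 0.16, and its call was lost without any of 5 of the 6 arrays, severe replicate 3 being the exception (adjusted p = 0.078 to 0.11).

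Fuel metabolism followed. Of 20 genes of the TCA cycle and of fatty acid and ketone oxidation, 18 fell (11 with the control scaling) and none rose; citrate synthase (Cs) read 1434, 2009 and 1855 in severe swelling and 5054, 5254 and 6619 in no swelling (-1.67 ± 0.17), and Acadm, which oxidizes medium-chain fatty acids, fell by 1.70 ± 0.18. All 12 genes of branched-chain amino acid breakdown fell, with Aldh6a1 the lowest (-2.33 ± 0.23); 2 of the 12 were called with the control scaling. Of 14 muscle energy transfer genes 12 fell (8 with the control scaling). Among the 12 were Ckmt2, Perm1 (-2.71 ± 0.37), a regulator of mitochondrial genes, and Ppargc1a (-1.85 ± 0.22), the coactivator of mitochondrial biogenesis. Ckm, the cytosolic muscle creatine kinase, did not pass by its brightest probe set (-0.19 ± 0.22, adjusted p = 0.55) but fell for the mean of its probe sets (-1.40, adjusted p = 9.5e-06). Glycolysis was divided, with 6 of 14 genes higher and 7 lower (3 with the control scaling). Pfkl (2.27 ± 0.35), Pgam1 (1.86 ± 0.20), Pfkp (1.56 ± 0.21) and Hk1 (1.32 ± 0.14) rose, whereas the muscle isozymes Pfkm (-0.93 ± 0.16), Pgam2 (-1.43 ± 0.19) and Hk2 (-1.44 ± 0.15) fell, so that each of the 3 enzymes had members on either side.

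The promoter of Ckmt2 is shown because its gene is among the largest falls and is a textbook muscle gene; the capitals mark CAGCTG, an E-box core of myogenic factors, in the window chr13:91876836-91877135 on the minus strand (RefSeq, GRCm38.p6).
Ckmt2: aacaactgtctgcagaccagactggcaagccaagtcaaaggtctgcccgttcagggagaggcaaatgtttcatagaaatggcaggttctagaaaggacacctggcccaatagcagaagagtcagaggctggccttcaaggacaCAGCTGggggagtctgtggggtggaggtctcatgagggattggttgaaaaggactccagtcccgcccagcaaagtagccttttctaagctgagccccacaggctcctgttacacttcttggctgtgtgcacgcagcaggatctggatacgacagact
The match began 107 bases before the start. Of the 15 genes with the largest falls, 12 had 15 windows in the table, and 3 of the 15 (20%; Ckmt2, Fbp2 and Mylk4) held CAGCTG, against 16.3% of all windows. The core of the MEF2 element (CTA and TAG with 4 bases between them) was in 1 of the 15 windows (6.67%, Smco1), against 3.69% of all.

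Calcium handling and neuromuscular genes were uneven. Of 14 genes of muscle excitation and calcium handling, 9 fell (5 with the control scaling) and 1 rose. Jph1, a junctional protein that holds the calcium release unit together, read 717, 1275 and 674 in severe swelling, against 3783, 3035 and 3866 in no swelling (-2.04 ± 0.24), and the calcium channel Cacna1s fell by 1.42 ± 0.21. Sln, sarcolipin, which inhibits the calcium pump of muscle, rose, at 1306, 2396 and 395 in severe swelling and 125, 281 and 34.3 in no swelling (3.09 ± 0.60, adjusted p = 7.8e-04). Of 14 genes of developing or regenerating muscle, 6 rose and Actc1 fell. Runx1 rose by 1.96 ± 0.25 and Chrng, the embryonic acetylcholine receptor subunit, by 1.68 ± 0.43. Whether the Runx1 signal came from muscle or from other cells of the tissue was not tested. Chrna1, the alpha subunit of the muscle acetylcholine receptor, read 1374, 2610 and 1061 in severe swelling and 1812, 185 and 85.8 in no swelling. It was called higher (2.24 ± 0.77), but no-swelling replicate 1 lay within the severe range. The call was lost without no-swelling replicate 2 (adjusted p = 0.12) or 3 (0.19) and without severe replicate 1 (0.069) or 2 (0.12). Myh3 and Myh8, the embryonic and neonatal heavy chains, did not pass (adjusted p = 0.07 and 0.75); Myh3 passed as higher without no-swelling replicate 1 (0.031) or 2 (0.037) and without severe replicate 3 (0.044). Of the ubiquitin ligases of atrophy, Trim63 did not pass (-0.71 ± 0.32) except without severe replicate 2 (-1.21, adjusted p = 6.7e-04), and Fbxo32 fell with overlapping groups, at 1071, 2582 and 774 in severe swelling and 3549, 2482 and 3640 in no swelling (-1.29 ± 0.37); its call was lost without severe replicate 1 (adjusted p = 0.056) or 3 (0.076).

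Adipocyte genes fell. Of 12 markers, 9 fell (6 with the control scaling and 7 to 9 without 1 array) and none rose. Their summed signal was 5771 to 8348 in the severe arrays, against 13909 to 18706 in the no-swelling arrays. Adipoq, adiponectin, read 298, 126 and 498 in severe swelling and 1211, 2027 and 1509 in no swelling (-2.46 ± 0.51, adjusted p = 0.0013), and Plin4, of lipid droplets, fell by 2.67 ± 0.43. Lpl (-1.77 ± 0.22) and the insulin-responsive glucose transporter Slc2a4 (-2.07 ± 0.26) are shared with muscle. Pparg and Lipe did not pass (adjusted p = 0.13 and 0.64). Among lipid synthesis genes, Scd1 (-1.47 ± 0.30) and Fasn (-1.35 ± 0.33) fell and Acly rose (0.76 ± 0.20), while the cholesterol exporters Abca1 (1.17 ± 0.17) and Abcg1 (1.89 ± 0.21) rose.

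Some genes also differed between no swelling and naive joints. The naive arrays are labelled healthy, but the protocol attached to them names the immunization as well, so that whether these mice were unimmunized is not settled by the labels. Joints without swelling differed from naive joints in 261 probe sets that were higher and 381 that were lower (0.58% and 0.846%), or in 128 and 180 of 18193 genes (0.704% and 0.989%, 1.69% in either direction). On the log2 scale, severe over naive minus severe over no swelling is exactly no swelling over naive, since the severe arrays are shared, so the test of no swelling over naive is the test of whether the control group matters for a gene. S100a9 read 1154, 437 and 146 in no swelling, against 15.2, 15.9 and 20.8 in naive joints, a log2 fold change of 3.73 ± 0.49 (adjusted p = 0.0017). For Saa3 this step was 3.42 ± 0.30 and for Il6 2.80 ± 0.34; Il6 read 216, 110 and 87.5 in no swelling and 1.8, 14.1 and 0.7 in naive joints, beside 1.58 ± 0.34 for severe over no swelling; whether these 2 values differ was not tested. Socs3 had 0.66 ± 0.21 for severe over no swelling and 3.06 ± 0.21 for no swelling over naive. The matrix genes that lead the comparison did not pass between no swelling and naive joints: Mmp13 (1.39 ± 0.74, adjusted p = 0.41), Mmp3 (1.16 ± 0.38, 0.15), Ctsk (0.37 ± 0.35, 0.71), Cthrc1 (0.74 ± 0.52, 0.58), Mfap4 (-0.16 ± 0.62, 0.95) and Crabp2 (-0.25 ± 0.56, 0.9). A difference that missed the threshold is not shown to be absent. Of the 17 collagen chains, 2 were lower in no swelling than in naive joints and none was higher. The 642 probe sets that separated no swelling from naive joints became 146 without no-swelling replicate 1 and 385 without its replicate 3, and 184, 313 and 140 without naive replicates 1, 2 and 3.

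**Figure D4:**
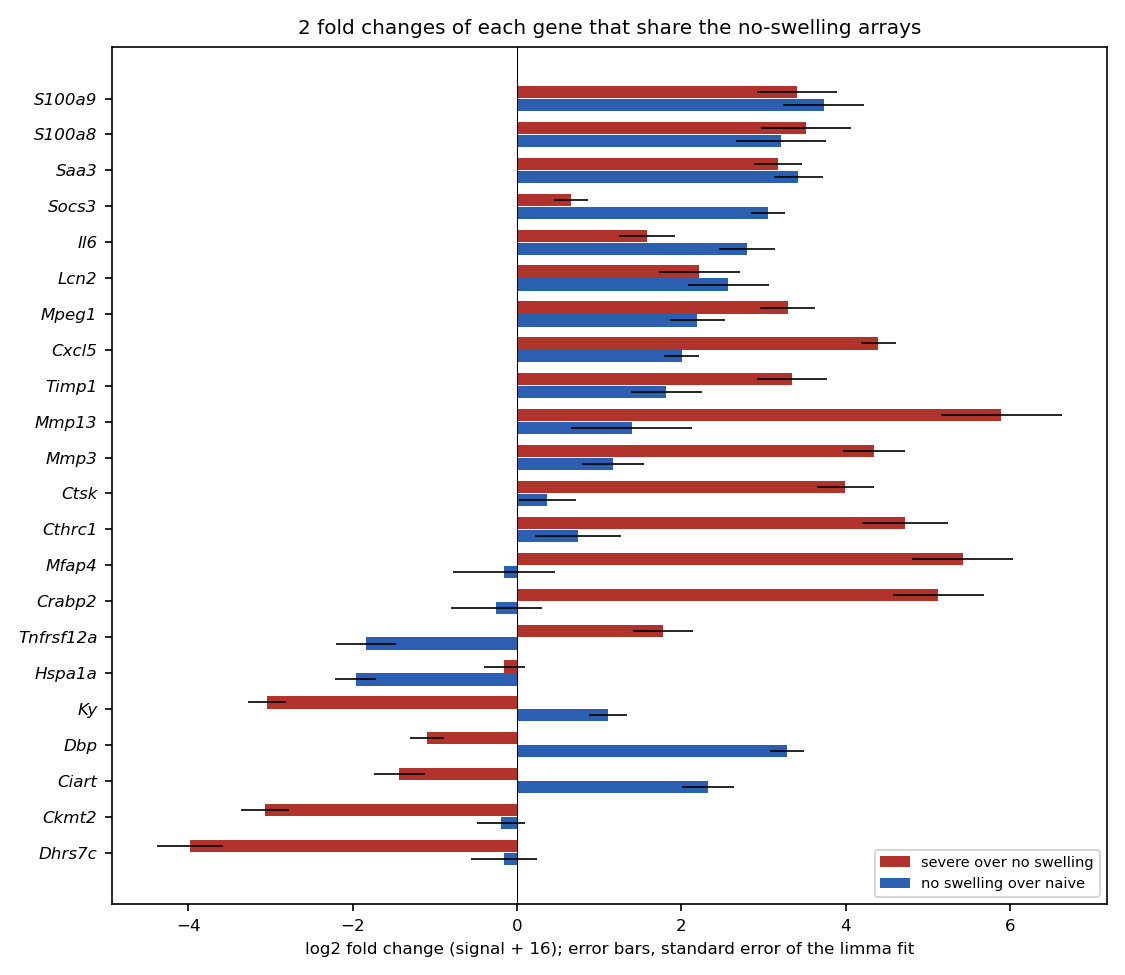
Log2 fold change of 22 genes for severe over no swelling (red) and no swelling over naive (blue), with standard errors from the limma fit; the no-swelling arrays enter both, with opposite sign. S100a9, S100a8, Saa3, Socs3 and Il6 have large blue bars, Mmp13, Mmp3, Ctsk and Cthrc1 have long red bars beside short blue ones, and Dbp, Ciart, Ky and Tnfrsf12a have bars of opposite direction.

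Several genes had fold changes of opposite direction in the 2 steps. The no-swelling arrays enter both steps with opposite sign, so a deviation of these arrays alone would also give such a pair. Its part was not tested. Genes named here were chosen in part because they passed in both steps. Dbp, an output of the circadian clock, read 798, 1000 and 967 in severe swelling, against 2024, 1784 and 2141 in no swelling (-1.09 ± 0.21, adjusted p = 7.6e-04), and no swelling lay 3.29 ± 0.21 above naive joints (182, 171 and 213). Of 16 clock genes, 9 fell in severe swelling (1 with the control scaling) and 1 rose, and between no swelling and naive joints 7 were higher and 2 lower. Ciart fell by 1.43 ± 0.31 in severe swelling and was 2.33 ± 0.31 above naive in no swelling, whereas Arntl, the partner of Clock, did not pass in severe swelling (-0.50 ± 0.20, adjusted p = 0.072; 0.0058 without no-swelling replicate 2 and 0.040 without severe replicate 1) and was lower in no swelling than in naive joints (-1.70 ± 0.20). The hour of tissue collection is not given in the labels, and its part was not tested. Tnfrsf12a fell in no swelling relative to naive (-1.84 ± 0.36) and rose in severe swelling. The heat shock gene Hspa1a was lower in no swelling than in naive joints (-1.97 ± 0.25) and did not pass between severe and no swelling (-0.15 ± 0.25, adjusted p = 0.69). Ky, a protein of neuromuscular stability, was higher in no swelling than in naive joints (1.11 ± 0.23) and fell by 3.04 ± 0.23 in severe swelling; Adhfe1 (-2.75 ± 0.18, against 1.01 ± 0.18), Amy1 (-2.20 ± 0.22, against 1.03 ± 0.22) and Mib1 (-1.61 ± 0.20, against 1.34 ± 0.20) showed the same pair of directions.

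**Figure D5:**
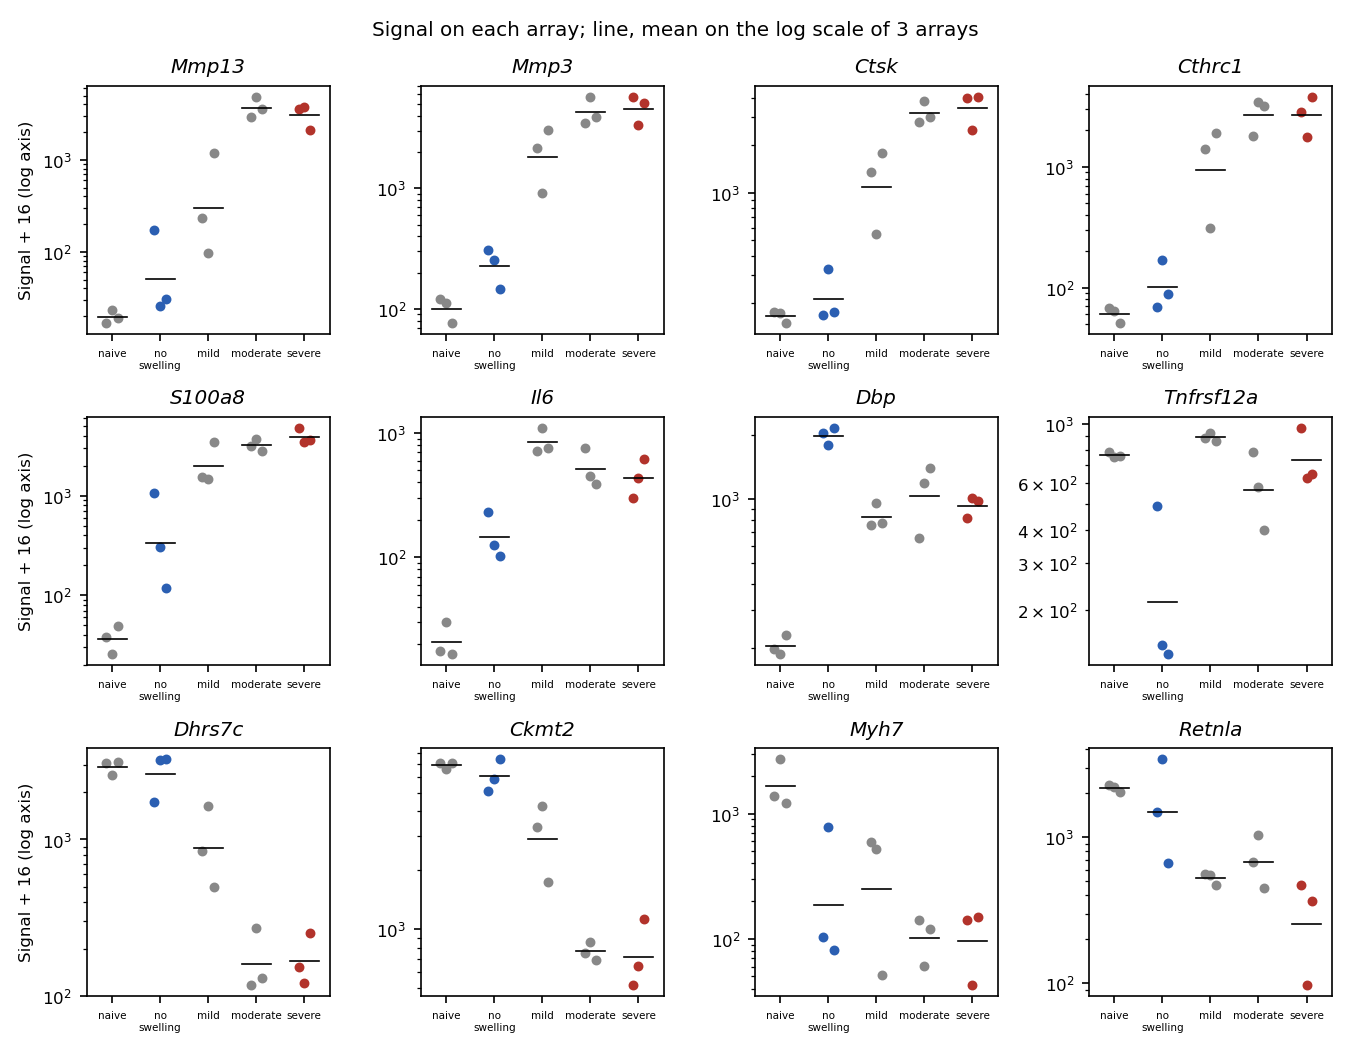
Signal plus 16 (log axis) of 12 genes on all 15 arrays, ordered from naive through no, mild, moderate and severe swelling; lines are means on the log scale. Mmp13, Ctsk and Cthrc1 are far above no swelling in severe swelling and the moderate arrays overlap the severe ones, S100a8 and Il6 are already above naive in no swelling, and Dhrs7c and Ckmt2 are low in moderate and severe swelling.

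Few probe sets separated severe from moderate swelling. The same fit called 1 probe set higher and 0 lower between severe and moderate swelling (0.00222% and 0%), although 3218 probe sets had an unadjusted p under 0.05. The probe set called belongs to Lamc1, a laminin chain; it read 235, 148 and 176 in severe and 67.3, 60.4 and 53.6 in moderate swelling (log2 fold change 1.39 ± 0.17, adjusted p = 0.035) and 135, 114 and 83.9 in no swelling. It is not the probe set that stands for the gene elsewhere here, and was named after its values were seen. The genes of lowest p were Lhx8, Tob2, Zfhx4, C8a and Zfp874a, none past the threshold (adjusted p of 0.17 to 0.37). Mmp13 read 3554, 3752 and 2099 in severe and 2914, 4768 and 3572 in moderate swelling, and Ckmt2 read 499, 633 and 1108 in severe and 739, 841 and 679 in moderate swelling, so the 2 groups overlapped for both.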

How the data were processed

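Synovium RNA was extracted with the Qiagen RNeasy kit, per the labels' protocols, and hybridized to 1-colour arrays, 3 in each of 5 groups. The deposited values are linear intensity signals made by the authors with MAS5, per the submitters' processing notes; other settings are not given in the sources used here. Of 45101 probe sets, 64 controls were left out and 45037 tested on log2(signal + 16) with limma 3.58.1 (R 4.3.3), with group means over all 15 arrays, an intensity trend and Benjamini-Hochberg adjustment over all probe sets, two-sided at 0.05, with no filter. A gene was represented by its brightest probe set, and 34945 probe sets had 1 symbol. Named genes were the 15 largest changes each way without overlap, the 3 members of lowest p in each list and the largest opposing member, the 6 brightest called each way, 5 each way that also differed between no swelling and naive, 5 of lowest p against moderate, and a fixed panel; any further gene was picked with its values known. The comparison, members and lists were chosen with earlier results of these data known. Alternatives covered the pseudocount, filters on low signals, scaling, moderation, arrays in the fit, the replicate block, array weights and the probe sets of a gene. Simulated data (45037 probe sets with independent noise) held 50 probe sets shifted by each of 0.5, 1, 2 and 3 on the log2 scale, with no other group difference. Of these shifts 2%, 48%, 96% and 100% were recovered, and 3.91% of calls were false. In the real comparison 33.9% of probe sets were called, so these shares are not its power or error rate.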

Additional observations from a re-analysis of the deposited data

How the results depend on the processing

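The comparison of severe with no swelling was repeated under 20 alternatives. Of 318 called genes followed by name, 251 lost neither call nor direction under any alternative that tested them (the stricter filter on low signals tested 306 of the 318). Direction was lost for Dsp, whose log2 fold change was -0.018 for the mean of its probe sets, for Uqcrb, at 0.0022 with the control scaling, and for Nfatc1, at 0.0093 with the control scaling and 0.80 for the mean of its probe sets. Leaving out each array in turn gave 7273 to 8813 probe sets higher and 5141 to 6228 lower, or 3814 to 4499 genes higher and 2585 to 3037 lower. Probe sets lower numbered 9643 with medians aligned and 1476 with the control scaling, and genes lower 679 with the control scaling. Deviations from the group mean correlated at -0.05, -0.26 and -0.05 over probe sets between severe and no-swelling arrays of the same replicate number. Arrays of different numbers gave -0.11 to 0.15. Deviations within a group of 3 arrays constrain each other, so these values cannot settle whether the numbers pair the arrays. With the replicate number as a block, 8633 probe sets were higher and 6043 lower, and no swelling differed from naive in 400. The 642 probe sets between no swelling and naive became 1082 with the stricter filter on low signals, 31 with the control scaling, 424 without the intensity trend, 1250 with array weights, 976 without mild replicate 2, and 140 to 706 without 1 array of the groups compared. The 1 probe set between severe and moderate swelling became 2 with the stricter filter and 0 with a pseudocount of 64, medians aligned, the control scaling, no intensity trend, only the groups compared, or without mild replicate 2, and 0 to 22 without 1 array of the groups compared. The cause of these changes was not tested. With 3 arrays a group, the number of arrays limits the precision.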

Other observations

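Genes of protein synthesis and breakdown had falls that depended on the scaling. Of 8 mitochondrial ribosomal proteins measured, all 8 fell in severe swelling (0 with the control scaling), with Mrps22 the lowest (-0.96 ± 0.13), while of 10 cytosolic ribosomal proteins Rps19 rose (0.71 ± 0.17) and the other 9 did not pass; after quantile normalization 4 of the 18 ribosomal proteins were higher. Of 11 constitutive proteasome subunits, 7 fell, among them Psmb7 (-0.68 ± 0.15), and of 8 genes of the immunoproteasome and of antigen processing, 7 rose, Psmb8 by 1.18 ± 0.18 and the peptide transporter Tap2 by 1.16 ± 0.15. The number of proteasome genes that fell was 8 with all arrays, 2 after quantile normalization, 0 with the control scaling and 5, 4, 3 and 5 without no-swelling replicate 1, no-swelling replicate 3, severe replicate 1 and severe replicate 3.

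Among 15 Hox and limb patterning genes, 6 fell (1 with the control scaling) and 3 rose, beside 16.6% lower and 25.1% higher over all genes. Hoxd10 read 10.8, 44.4 and 9 in severe swelling and 65.6, 75 and 110 in no swelling (-1.51 ± 0.29, adjusted p = 7.3e-04), and Hoxc10 fell by 1.204 ± 0.21, a call that was lost with the control scaling (adjusted p = 0.13). Pitx1, a hindlimb factor, read 120, 94.6 and 119 in severe swelling and 54.5, 11.4 and 52.2 in no swelling (1.32 ± 0.29, adjusted p = 0.0021). Among guidance genes, the receptors Nrp2 (2.44 ± 0.22) and Plxnd1 (2.11 ± 0.20) and the ligand Sema4d (2.09 ± 0.20) rose and Sema3c fell (-0.68 ± 0.13; lost with the control scaling). Among retinoid genes, Crabp2 rose while Aldh1a1, which makes retinoic acid, fell (-1.64 ± 0.19). The iron exporter Slc40a1 fell (-1.42 ± 0.18) and the haem oxygenase Hmox1 rose (1.62 ± 0.25). Of 8 glucocorticoid-responsive genes, 5 fell (1 with the control scaling) and 1 rose; Tsc22d3 fell by 0.85 ± 0.18, a call that was lost with the control scaling (adjusted p = 0.42), and Fkbp5 rose by 0.66 ± 0.12, a call that did not hold for the mean of its probe sets. Of 8 hypoxia response genes, 3 rose, 1 fell and 4 did not pass, beside 25.1% higher and 16.6% lower over all genes. Hif1a, the oxygen-sensing factor, rose (2.31 ± 0.22), at 3091, 2846 and 3797 in severe swelling and 792, 632 and 517 in no swelling. The 1 that fell was its target Bnip3 (-1.48 ± 0.18). The amino acid transporter Slc7a5 rose by 2.56 ± 0.33.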
